A study of Rattus norvegicus with 12 samples.

Results

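The 10 genes described here make up a set named for the alternatively activated state of macrophages: Il4r, Retnla, Arg1, Chi3l1, Spp1, Mrc1, Cd163, Msr1, Marco and Gpnmb. They were chosen by name and found on the array through the RefSeq accession of each probe, with the most intense detected probe standing for a gene. Of 14919 genes named on the array, 9 of the 10 were found in this way, and 8 of these 9 were detected. A probe counted as detected when the scanner software placed it well above background on every array of some group. Marco was not detected. Msr1 had no probe named by a RefSeq accession and could be named only because the authors listed its probe as differentially expressed (DE) in 2 treated groups, so its values are given as a description and it enters no count.

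Lung RNA of 12 male Sprague-Dawley rats aged 8 to 12 weeks was measured, 1 array per rat and 3 rats per group. Control rats breathed air and received saline. The CS+LPS group, a model of chronic obstructive pulmonary disease, inhaled cigarette smoke (CS) up to day 30 and had bacterial lipopolysaccharide (LPS) instilled into the trachea on days 5 and 19. The CS+LPS+NaHS group (NaHS group) and the CS+LPS+PPG group (PPG group) had the same exposure, with an injection 2 h before each exposure of NaHS, a hydrogen sulfide donor given at 14 umol/kg, or of propargylglycine (PPG), an inhibitor of the hydrogen sulfide-producing enzyme Cth, and lungs were removed 24 h after exposure ended. The comparisons ask which of the 10 genes changed with smoke and LPS, and whether raising or lowering hydrogen sulfide altered that change.

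Macrophages exposed to IL-4 or IL-13 signal through the IL-4 receptor and the transcription factor Stat6 and turn on a set of secreted proteins, enzymes and uptake receptors that serve repair, defence against helminths and clearance of debris. Classical activation by LPS and interferon gamma turns on another set, among them Nos2 and Tnf. In lung, resident alveolar macrophages, interstitial macrophages and recruited monocytes carry these genes to different degrees, and several of them are also made elsewhere, Retnla by epithelium and fat and Spp1 by epithelium. Since whole lung tissue was measured, more cells of a type and more RNA per cell cannot be told apart.

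Promoter sequence from RefSeq (assembly GRCr8) was at hand for 8 of the 10 genes, and none for Arg1 and Msr1. The 250 bases upstream of the transcription start are shown for 3 genes whose signals moved in the comparisons below, Retnla and Gpnmb upward and Cd163 downward, written 5′ to 3′ on the strand of the gene. They lie at chr11:65426187-65426436 (minus strand), chr4:79340878-79341127 (plus strand) and chr4:158770524-158770773 (plus strand). Capitals mark the matches to the motifs named after them.
Retnla: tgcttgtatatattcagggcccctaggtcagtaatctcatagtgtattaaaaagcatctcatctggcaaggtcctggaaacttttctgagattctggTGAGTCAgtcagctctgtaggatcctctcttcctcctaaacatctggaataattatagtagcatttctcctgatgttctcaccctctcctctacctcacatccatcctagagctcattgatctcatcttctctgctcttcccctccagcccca
Gpnmb: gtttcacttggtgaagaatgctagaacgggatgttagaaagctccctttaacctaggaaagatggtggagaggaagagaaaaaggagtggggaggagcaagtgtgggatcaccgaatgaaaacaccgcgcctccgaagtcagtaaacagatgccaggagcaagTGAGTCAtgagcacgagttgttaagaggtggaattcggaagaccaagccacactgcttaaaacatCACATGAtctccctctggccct
Cd163: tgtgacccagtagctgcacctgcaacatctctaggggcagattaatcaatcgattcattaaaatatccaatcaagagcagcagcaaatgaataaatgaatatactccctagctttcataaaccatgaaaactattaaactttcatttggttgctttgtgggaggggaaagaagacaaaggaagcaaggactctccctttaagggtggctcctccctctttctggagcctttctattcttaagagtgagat
Both strands were searched for 6 letter patterns: TTC and GAA with 4 bases between them for Stat6, TTCNNNGAA for other Stat factors, TGANTCA for AP-1, TCACGTG and TCATGTG for factors of the Mitf and Tfe family, and TTGCNNAA for C/EBP. The AP-1 letters began at position -153 from the start of Retnla and -87 from that of Gpnmb, and 6.34% of 33469 rat promoter windows of the same length hold them. Gpnmb also held the reverse complement of TCATGTG, at position -22, and the matches do not overlap; 3.07% of windows hold it. No other match fell within these windows in the 8 genes. The Stat6 letters stand in 6.25% of all windows.

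Arrays were compared on normalized signal, the background-subtracted intensity on the log2 scale with the 75th percentile of each array made equal, and DE stands for a change of 2-fold or more together with an unadjusted p under 0.05 in the linear model of limma over all 21239 detected probes. The adjusted p is that of Benjamini and Hochberg over the same probes. An exact permutation test of 3 arrays against 3 cannot give a p below 0.1. The 3 comparisons with control share the same 3 control arrays. The arrays lay on 2 slides, slide 2 with Control replicate 3 and the CS+LPS group and slide 1 with all other arrays, so that CS+LPS against either treated group is also slide against slide. Control replicate 3 stood apart: its 75th percentile of signal was 1229, against 2110 to 3261.5 on the other 11 arrays. Its mean log2 signal over 6 detected heart muscle markers was 13.71 and over 6 detected fat markers 12.38, against 6.66 and 6.67 (heart) and 6.71 and 7.02 (fat) in the other controls. The same heart means were 9.76 to 12.81 in the CS+LPS, 6.53 to 12.86 in the NaHS and 12.46 to 13.21 in the PPG group, and the fat means were 7.18 to 8.12, 7.26 to 7.66 and 9.06 to 10.24. Within slide 1 the PPG group is thus compared with controls whose heart and fat means lay below those of every PPG array. For the 8 detected genes, differences that rest on Control replicate 3 are therefore given with and without it. The values of the lists of related genes and markers are given only with it. The part of this other tissue in the results was not tested.

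Compared with control, 3 of the 8 tested genes were DE in the CS+LPS group, where 4.56% of all detected probes were. Retnla and Arg1 rose (1.65% of probes were DE and higher) and Cd163 fell (2.91% DE and lower). In the NaHS group, 2 of 8 were DE (2.67% of probes), Retnla and Gpnmb, both higher (1.3% of probes), and in the PPG group 4 of 8 (4.38% of probes), Retnla, Arg1, Gpnmb and Spp1, all higher (2.32% of probes). The median log2 difference over the 8 genes was 0.95, 0.75 and 1.07 in the CS+LPS, NaHS and PPG groups, beside a median of -0.04, 0.00 and -0.01 over all detected probes. Between the 3 exposed groups none of the 8 was DE. After adjustment over all probes 1 of these calls stayed under 0.05 in limma, Gpnmb in the PPG group, where 4.64% of probes did. In the CS+LPS and NaHS groups 0 genes did (2.02% and 0.0989% of probes). By the methods' t-test 2 genes in each were DE, where 2.09% and 1.31% of probes were.

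**Figure D1:**
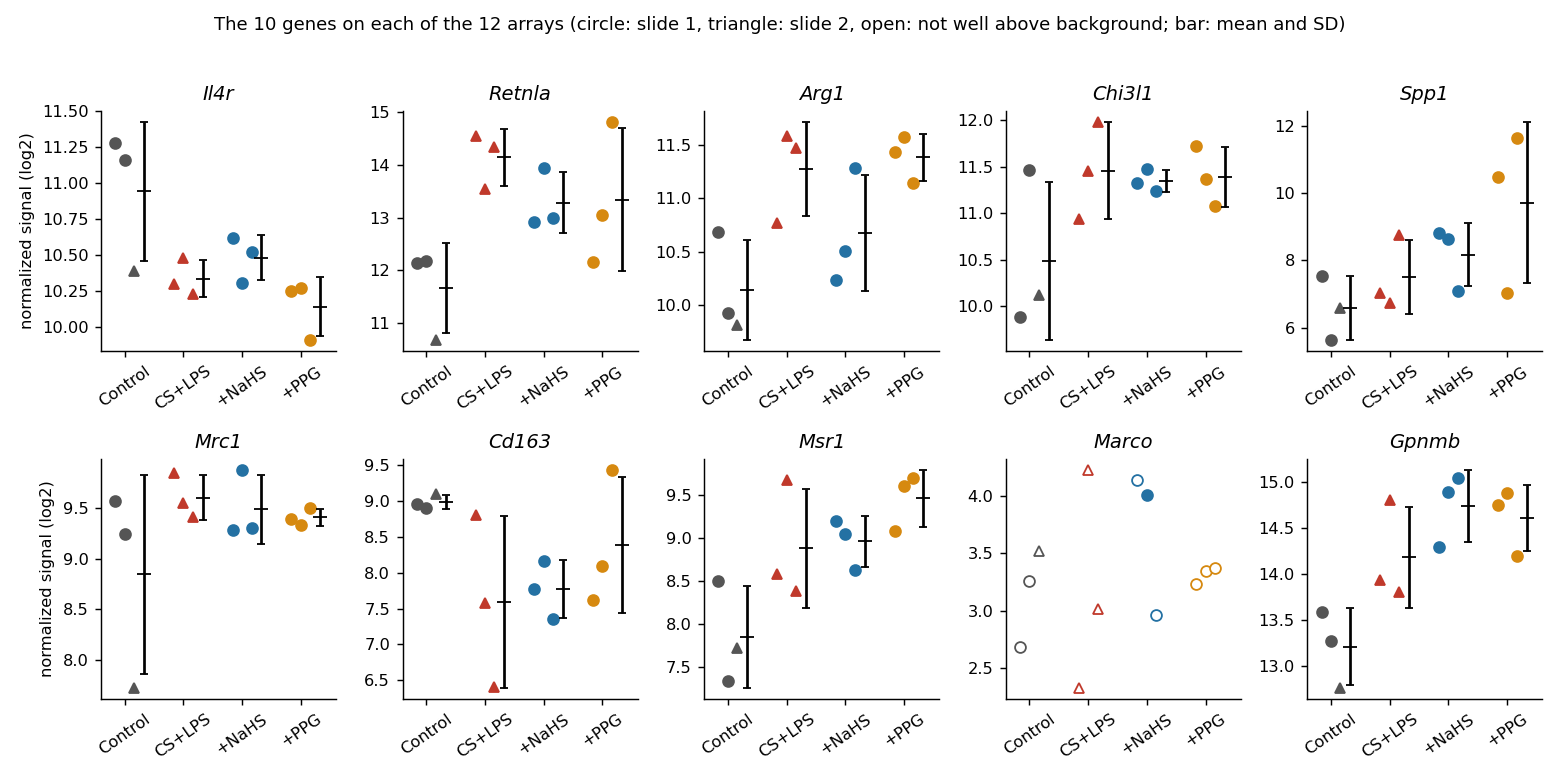
Normalized signal (log2) of each gene on each array, by group, with the scale of each panel its own. Circles are slide 1, triangles slide 2, open symbols arrays where the probe was not well above background, and bars give the mean and SD of 3 arrays. All 9 exposed arrays lie above the controls for Gpnmb and 8 of 9 for Retnla, while 8 of 9 lie below them for Cd163.

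Il4r encodes the alpha chain shared by the receptors for IL-4 and IL-13, the point of entry of the alternative programme. Its signals were 11.28, 11.16 and 10.39 in control, 10.30, 10.48 and 10.23 in CS+LPS, 10.62, 10.31 and 10.52 with NaHS and 10.25, 10.27 and 9.91 with PPG. The exposed arrays lay below Control replicates 1 and 2, and Control replicate 3 lay among them. The difference from control was -0.60 ± 0.22 (SE) in the CS+LPS group (adjusted p = 0.135 in limma), -0.46 ± 0.22 with NaHS (adjusted p = 0.31) and -0.80 ± 0.22 with PPG (adjusted p = 0.0605), each under 2-fold and not DE. Without Control replicate 3 the differences were -0.88, -0.74 and -1.07, of which the last was DE. Beside that array alone, within slide 2, the CS+LPS difference was -0.05 (unadjusted p = 0.845). A dimmer second Il4r probe differed from control by -0.58, -0.42 and -0.75 in the same order, with an adjusted p of 0.0429 for PPG, and on it Control replicate 3 was the highest array. From high to low the group means ran control, NaHS, CS+LPS, PPG, and no neighbours among the exposed groups were DE.

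Of 15 detected genes of the IL-4 and IL-13 axis, 0 were DE against control in any exposed group, and their median differences were 0.09, 0.02 and -0.11. Pparg, a nuclear receptor that IL-4 induces in macrophages, passed the adjusted test below 2-fold, at 0.73 ± 0.16 in CS+LPS (adjusted p = 0.0448) and 0.92 ± 0.16 with PPG (adjusted p = 0.0211). Which cells of the lung carried this rise was not tested. The lowest value was that of the decoy receptor Il13ra2, -1.54 ± 0.80 with NaHS and -1.74 ± 0.80 with PPG (adjusted p = 0.341 and 0.176). Il4 itself, the ligand, was dim (mean 4.68 in control) and differed by 0.09 ± 0.56 in the CS+LPS group, while Il13 was not detected. Stat6, which carries the signal to the nucleus, differed by -0.45 ± 0.15 (adjusted p = 0.114) in CS+LPS, 0.25 ± 0.15 with NaHS and -0.12 ± 0.15 with PPG. The common gamma chain Il2rg differed by 0.68 ± 0.17 in CS+LPS (adjusted p = 0.0677), and Il13ra1, the other IL-13 receptor chain, by 0.04 ± 0.18.

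Retnla encodes the secreted resistin-like molecule alpha, a hallmark of the state in rodents, and had the widest rise of the 8 genes in the CS+LPS group. Its signals were 12.14, 12.18 and 10.68 in control and 14.55, 13.53 and 14.34 in CS+LPS. The lowest CS+LPS array exceeded the highest control. The mean rose from 11.67 ± 0.86 to 14.14 ± 0.54 (SD, n = 3), a difference of 2.47 ± 0.63 (SE) or 5.55-fold (unadjusted p = 0.00254, adjusted p = 0.0694, limma), which was rank 27 from the top among 21239 probes. Without Control replicate 3 it was 1.98 and still DE. Within slide 2 it was 3.46, but there the control is that array alone, which has no spread of its own and had the lowest Retnla of all 12.

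In the treated groups Retnla stood between control and CS+LPS. With NaHS the signals were 12.91, 13.94 and 13, all above control, and the mean 13.28 ± 0.57 was 1.62 ± 0.63 above it (3.064-fold, adjusted p = 0.25). With PPG they were 12.16, 13.04 and 14.81, from within the control range to above every other array, and the mean 13.34 ± 1.35 was 1.67 ± 0.63 above control (3.178-fold, adjusted p = 0.118). Both calls rested on Control replicate 3: within slide 1, which leaves it out, the differences were 1.12 (unadjusted p = 0.145) and 1.17 (unadjusted p = 0.129), not DE. The NaHS call was also lost without NaHS replicate 2 (1.29) and the PPG call without PPG replicate 3 (0.93). Against the CS+LPS group, the differences were -0.86 (95% confidence interval -2.25 to 0.54) for NaHS and -0.80 (-2.20 to 0.59) for PPG, so that both no change and a 4-fold lower level lay inside the intervals. From high to low the group means ran CS+LPS, PPG, NaHS, control, and no neighbours among the exposed groups were DE.

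Retnla is also known from fat and epithelium. Control replicate 3 had the highest fat markers and the lowest Retnla of all 12 arrays. That is 1 array, and the part of fat and epithelium in the Retnla values was not tested. Over the 12 arrays the genes with the most similar pattern were Scara5 (Pearson r = 0.902), a ferritin receptor of stromal cells, Mien1 (0.895) and Ctsc (0.882), a protease of neutrophils and macrophages, as a description without a test. Of the resistin relatives, Retnlb was not detected, Retn differed by -0.57 ± 1.68 in CS+LPS, and Retnlg, a granulocyte gene, was 2.98 ± 1.22 higher and DE in CS+LPS (adjusted p = 0.165).

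Arg1, the arginase that turns arginine into ornithine and urea and so draws on the substrate of Nos2, was higher in the CS+LPS and PPG groups. Its signals were 10.68, 9.93 and 9.82 in control, 10.77, 11.58 and 11.47 in CS+LPS, 10.24, 10.51 and 11.28 with NaHS and 11.43, 11.57 and 11.14 with PPG. The CS+LPS and PPG arrays all exceeded control, whereas 2 of the 3 NaHS arrays lay in the control range. The rise was 1.13 ± 0.32 (2.195-fold, adjusted p = 0.0833) in CS+LPS and 1.24 ± 0.32 (2.361-fold, adjusted p = 0.0526) with PPG, and the NaHS difference was 0.54 ± 0.32 (adjusted p = 0.397). The CS+LPS call was lost just under 2-fold without Control replicate 3 (0.97) or CS+LPS replicate 2 (0.98), and the PPG call kept 1.08 within slide 1 (unadjusted p = 0.0132). The group means ran from high to low PPG, CS+LPS, NaHS, control.

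The NaHS group was 0.60 below CS+LPS for Arg1 (interval -1.30 to 0.11, unadjusted p = 0.089) and 0.70 below PPG (PPG minus NaHS interval 0.00 to 1.41, unadjusted p = 0.0507), neither DE. The PPG minus NaHS difference had an unadjusted p under 0.05 in some other settings, 0.0261 with normexp and 0.0492 within slide 1 among them, at an adjusted p of 0.573 in the fit reported. Without NaHS replicate 3, PPG against NaHS was 1.01 and DE. Of 16 detected genes of arginine and ornithine metabolism, 0 were DE in CS+LPS and PPG and 1 in NaHS, Arg2, the mitochondrial arginase, which fell by 1.34 ± 0.26 (SE, adjusted p = 0.106) there and differed by -0.88 in CS+LPS and -0.73 with PPG. Nos2 differed from control by no more than 0.06 in either direction. Odc1, which makes putrescine from ornithine, differed by 0.51 ± 0.15 in CS+LPS, and the arginine transporter Slc7a2 by 0.80 ± 0.30, neither DE. The genes most like Arg1 over the arrays were 2810025M15Rikl (r = 0.95), Tmem242 (0.921) and Ggta1 (0.914).

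Chi3l1, a chitinase-like secreted glycoprotein, was just under 2-fold above control in all exposed groups and not DE. Its signals were 9.88, 11.46 and 10.12 in control, 10.94, 11.45 and 11.98 in CS+LPS, 11.32, 11.47 and 11.24 with NaHS and 11.72, 11.37 and 11.08 with PPG. Control replicate 2 lay among the exposed arrays, and the other controls below them all. The differences were 0.97 ± 0.38 (1.957-fold), 0.85 ± 0.38 and 0.90 ± 0.38, with adjusted p of 0.155, 0.289 and 0.149 in limma, and the 3 exposed means differed from each other by 0.12 at most. Without Control replicate 2 the differences were 1.46, 1.34 and 1.39, all DE. The CS+LPS difference was also DE within slide 2 (1.34) and without CS+LPS replicate 1 (1.23), and the PPG difference without PPG replicate 3 (1.06). The chitinases Chit1 and Chia, of the same family, differed by 0.54 ± 0.32 and 0.33 ± 0.26 in CS+LPS and were not DE.

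Spp1 encodes osteopontin, a secreted ligand of integrins and Cd44 that marks recruited, lipid-handling macrophages and is also made by epithelium. It varied more between rats than any other of the 8 genes. Its signals were 7.53, 5.63 and 6.57 in control, 7.04, 6.72 and 8.75 in CS+LPS, 8.80, 8.63 and 7.09 with NaHS and 10.49, 7.03 and 11.64 with PPG, so that each exposed group overlapped control. Only the PPG difference was DE, 3.14 ± 1.04 (8.803-fold, unadjusted p = 0.0121, adjusted p = 0.0888, rank 15 from the top), carried by PPG replicates 1 and 3. It held within slide 1 (3.13, unadjusted p = 0.0422) and was lost without PPG replicate 3 (2.18, unadjusted p = 0.0587) and by the methods' t-test.

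Compared with CS+LPS, Spp1 differed by 2.21 with PPG (interval -0.09 to 4.52, unadjusted p = 0.0576) and by 0.67 with NaHS (interval -1.63 to 2.97). The PPG difference from CS+LPS was DE without PPG replicate 2 (3.56) or CS+LPS replicate 3 (2.84). From low to high the group means ran control, CS+LPS, NaHS, PPG. The mean log2 signal of 7 detected airway epithelial markers was also high in the PPG group, at 13.02 to 13.68. It was 11.73 to 12.64 in CS+LPS and 12.17 to 12.79 with NaHS, and 11.17, 11.74 and 13.67 in control, with replicate 3 the high one. Of the 7, 3 were higher and 4 lower with PPG than in control, at a median difference of -0.51. Their summed signal overlapped control. The 2 that were DE with PPG, Bpifa1 (6.45) and Scgb3a1 (3.61), were higher, and were DE against CS+LPS too. The part of epithelium in the Spp1 values was not tested. For the receptors of Spp1, of 7 detected integrin chains and Cd44, 0 were DE in any exposed group, and Cd44 differed by 0.67 ± 0.17 in CS+LPS (adjusted p = 0.0658). The genes most like Spp1 were Rpl28 (r = 0.915), Tnf (0.908) and Sod2 (0.869), of which Tnf is an inflammatory cytokine and Sod2 the mitochondrial superoxide dismutase.

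Mrc1, the mannose receptor CD206, is the receptor most often used to name these cells, and it was not DE in any group. Its signals were 9.57, 9.24 and 7.72 in control and 9.28 to 9.88 over the 9 exposed arrays. Control replicates 1 and 2 lay among or just under the exposed arrays, and Control replicate 3 lay far below. The differences of 0.76 ± 0.39, 0.64 ± 0.39 and 0.56 ± 0.39 (adjusted p of 0.24, 0.403 and 0.349) turned on that array. Within slide 1 they were 0.08 with NaHS and 0.00 with PPG, and without Control replicate 3 the CS+LPS difference was 0.20. Against Control replicate 3 alone, within slide 2, the CS+LPS difference was 1.88 and DE, and without Control replicate 1 it was 1.12 and DE. The 3 exposed means lay within 0.20 of each other.

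Cd163, the scavenger receptor that takes up haptoglobin-bound haemoglobin and marks resident tissue macrophages, went the other way. Its signals were tight in control, 8.96, 8.90 and 9.10, and lower and scattered after exposure: 8.80, 7.58 and 6.40 in CS+LPS, 7.78, 8.17 and 7.36 with NaHS and 7.62, 8.10 and 9.44 with PPG. All arrays but PPG replicate 3 lay below every control. The CS+LPS group fell by 1.39 ± 0.56 (2.629-fold lower, unadjusted p = 0.0314, adjusted p = 0.162). The NaHS difference was -1.22 ± 0.56 (unadjusted p = 0.0546) and that with PPG -0.60 ± 0.56 (unadjusted p = 0.31), neither DE.

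The CS+LPS call for Cd163 was lost in 9 of 26 other settings. These were slide as a block (-1.51, unadjusted p = 0.1), slide 2 alone (-1.51, unadjusted p = 0.13), replicate number as a block (-1.39, unadjusted p = 0.0501), the methods' t-test, each control array left out in turn (-1.44 to -1.34), and CS+LPS replicate 2 (-1.39) or 3 (-0.80) left out. The difference stayed below 0 in all 26, and the group means ran from high to low control, PPG, NaHS, CS+LPS. For NaHS the call was gained in 10 of 26 settings, within slide 1 among them (-1.16, unadjusted p = 0.0465). Among the genes most like Cd163 were Oat (r = 0.948) and Slc2a5 (0.935), a fructose transporter. Oat makes glutamate from ornithine.

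Msr1, scavenger receptor class A, which binds modified lipoprotein and microbial surfaces, is described without a test for the reason given above. Its signals were 8.50, 7.34 and 7.72 in control, 8.58, 9.67 and 8.39 in CS+LPS, 9.20, 9.05 and 8.63 with NaHS and 9.08, 9.60 and 9.70 with PPG. The mean was 7.85 ± 0.59 (SD, n = 3) in control, 8.88 ± 0.69, 8.96 ± 0.30 and 9.46 ± 0.34 in the exposed groups, and 8 of 9 exposed arrays lay above all controls. Marco, a class A scavenger receptor of alveolar macrophages, was well above background on 1 of 12 arrays, and no difference is given for it. Of 11 other scavenger receptors detected, 0 were DE against control in any exposed group.

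Gpnmb, a transmembrane glycoprotein of lysosomes that rises in lipid-laden macrophages, lay above every control on 9 of 9 exposed arrays. Its signals were 13.59, 13.27 and 12.76 in control, 13.93, 14.81 and 13.80 in CS+LPS, 14.29, 14.89 and 15.04 with NaHS and 14.75, 14.88 and 14.20 with PPG. It rose by 1.53 ± 0.32 with NaHS (2.894-fold, unadjusted p = 0.000614, adjusted p = 0.12) and by 1.40 ± 0.32 with PPG (2.644-fold, adjusted p = 0.0423). In the CS+LPS group the difference was 0.97 ± 0.32 (1.965-fold, unadjusted p = 0.0117), just under the line and not DE, though it was DE in 7 of 26 other settings.

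The treated groups were not separated from CS+LPS for Gpnmb, by 0.56 (interval -0.15 to 1.27) for NaHS and 0.43 (-0.28 to 1.14) for PPG. Within slide 1 the differences from control were 1.31 (unadjusted p = 0.00165) and 1.18 (unadjusted p = 0.00301), still DE. From high to low the group means ran NaHS, PPG, CS+LPS, control. The genes most like Gpnmb were P2ry10b (r = 0.92), Sele (0.91), an adhesion molecule of inflamed endothelium, and Gpr174 (0.906).

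**Figure D2:**
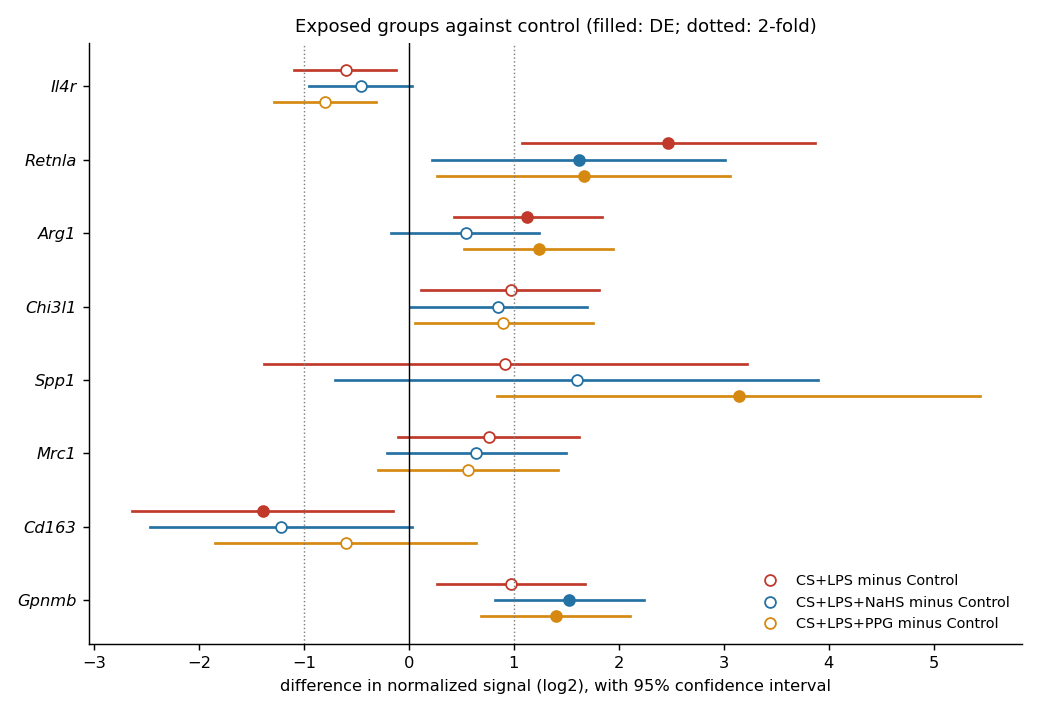
Difference from control in normalized signal (log2) for the 8 tested genes in each exposed group, with the 95% confidence interval from limma over 12 arrays. Filled points are DE and dotted lines mark 2-fold. Retnla is filled in all 3 groups, Cd163 alone is filled to the left of 0, and the interval of Spp1 is the widest.

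The number of genes whose 3 exposed arrays did not overlap the controls was 4 of 8 in CS+LPS (Retnla, Arg1, Cd163 and Gpnmb), where 25.2% of all probes did not overlap. It was 3 of 8 with NaHS (Retnla, Cd163 and Gpnmb, against 24.8%) and 3 of 8 with PPG (Arg1, Gpnmb and Il4r, against 33.2%).

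NaHS and PPG act on hydrogen sulfide in opposite directions, and the 3 comparisons between exposed groups held no DE call among the 8 genes, where 1.7% (NaHS against CS+LPS), 2.05% (PPG against CS+LPS) and 0.523% (PPG against NaHS) of all probes were DE. At an unadjusted p under 0.05 the count was also 0 in each, in limma and by the methods' t-test. The intervals were wide: for Retnla they spanned -2.25 to 0.54 and -2.20 to 0.59 against CS+LPS, and for Spp1 the PPG interval reached 4.52. They were narrower for Il4r, -0.34 to 0.63 with NaHS and -0.68 to 0.29 with PPG, so a 2-fold change lay outside them. With slide as a block, which rests on Control replicate 3 as the only link, Retnla and Mrc1 were DE and lower with NaHS than in CS+LPS (-2.34 and -1.80), and Mrc1 and Il4r with PPG (-1.88 and -1.03). In that fit 19.9% and 19.4% of all probes were DE, so that 2 of 8 genes was near the share over all probes.

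**Figure D3:**
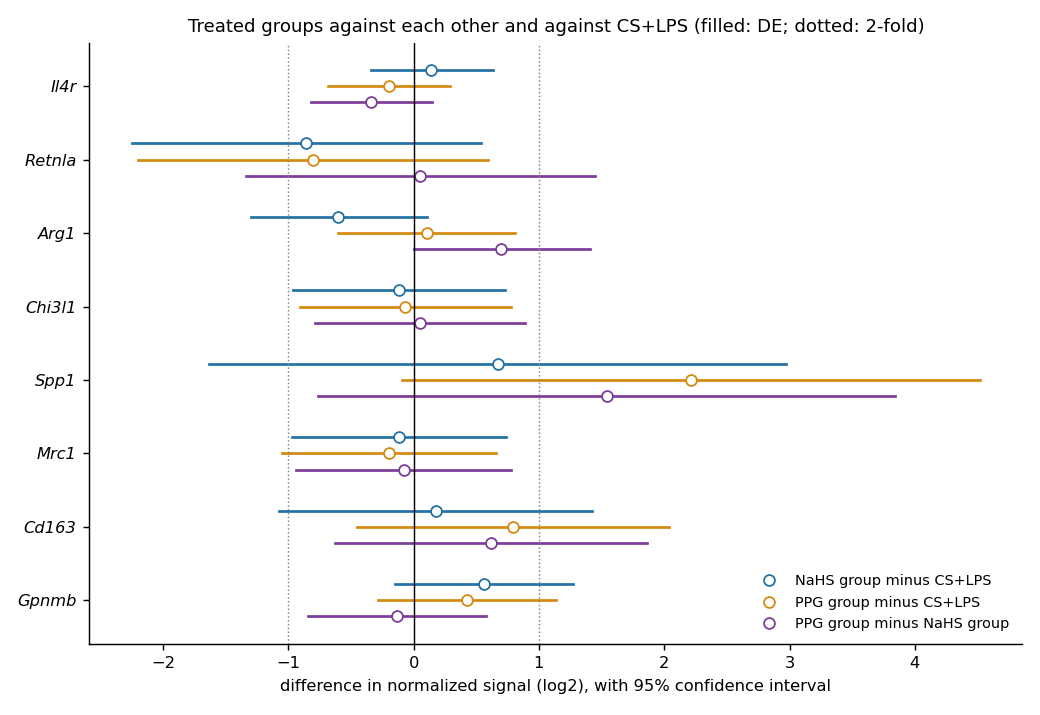
Differences in normalized signal (log2) between the exposed groups for the 8 tested genes, with 95% confidence intervals from limma. No point is filled, so none was DE, and every interval reaches 0, that of Arg1 in PPG against NaHS only at its edge.

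As a guide to macrophage content, 22 detected pan-macrophage markers were read, none of them among the 10 genes. Of these, 7 were DE and higher in CS+LPS (1.65% of all probes were), 4 with NaHS (1.3%) and 8 with PPG (2.32%). None was DE and lower. At any size, 3, 3 and 4 of the 22 were lower, with lowest differences of -0.48, -0.38 and -0.46. Cd68, a lysosomal glycoprotein of macrophages, rose by 1.39 ± 0.26 in CS+LPS (adjusted p = 0.0301) and 1.33 ± 0.26 with PPG (adjusted p = 0.0275). Adgre1, an adhesion receptor of macrophages, rose by 1.31 and 1.19, Ccr2, the chemokine receptor of recruited monocytes, by 1.16 and 1.58, while Csf1r, the receptor for the macrophage growth factor, differed by 0.62 and 0.42 and was not DE. The mean of the 22 markers was 11.08 to 11.75 in control (lowest in replicate 3), and the ranges were 12.00 to 12.27 (CS+LPS), 11.91 to 12.18 (NaHS) and 12.10 to 12.22 (PPG). On this log2 mean every exposed array was above every control, as for Gpnmb, whereas Cd163 and Il4r had lower means in the exposed groups. The summed signal of the same markers overlapped control in CS+LPS and with NaHS. It was 362200 to 442600 in control (highest in replicate 3) and 423800 to 506900 in CS+LPS. With NaHS it was 417100 to 466200 and with PPG 450200 to 545300. The part of macrophage content in the values of the 8 genes was not tested.

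Relative to those 22 markers on the same array, a scaling chosen after the data were seen, the median of all probes shifted to -0.68, -0.59 and -0.70. This scaling moves all genes of an array by the same amount, so the gaps between genes stay as they were. Calls are lost or gained by a shift common to all probes. On this scale 23.1% of all probes were DE in CS+LPS, 12.9% with NaHS and 23.8% with PPG. Of these DE probes only 55 of 4896, 34 of 2738 and 60 of 5063 were higher. Retnla stood 1.83 above control in CS+LPS (unadjusted p = 0.00672) and was not DE with NaHS (1.02) or PPG (0.98). Arg1 (0.50, -0.06 and 0.55) and Gpnmb (0.34, 0.94 and 0.72) were not DE on this scale, and Mrc1 stood at 0.12, 0.05 and -0.12. Cd163 was at -2.03 in CS+LPS (unadjusted p = 0.00559) and -1.81 with NaHS, both DE, and Il4r was DE and lower in all 3 groups (-1.24, -1.05 and -1.48), with the shift of all probes included in these values. Spp1 with PPG kept its call (2.45, unadjusted p = 0.0326).

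**Figure D4:**
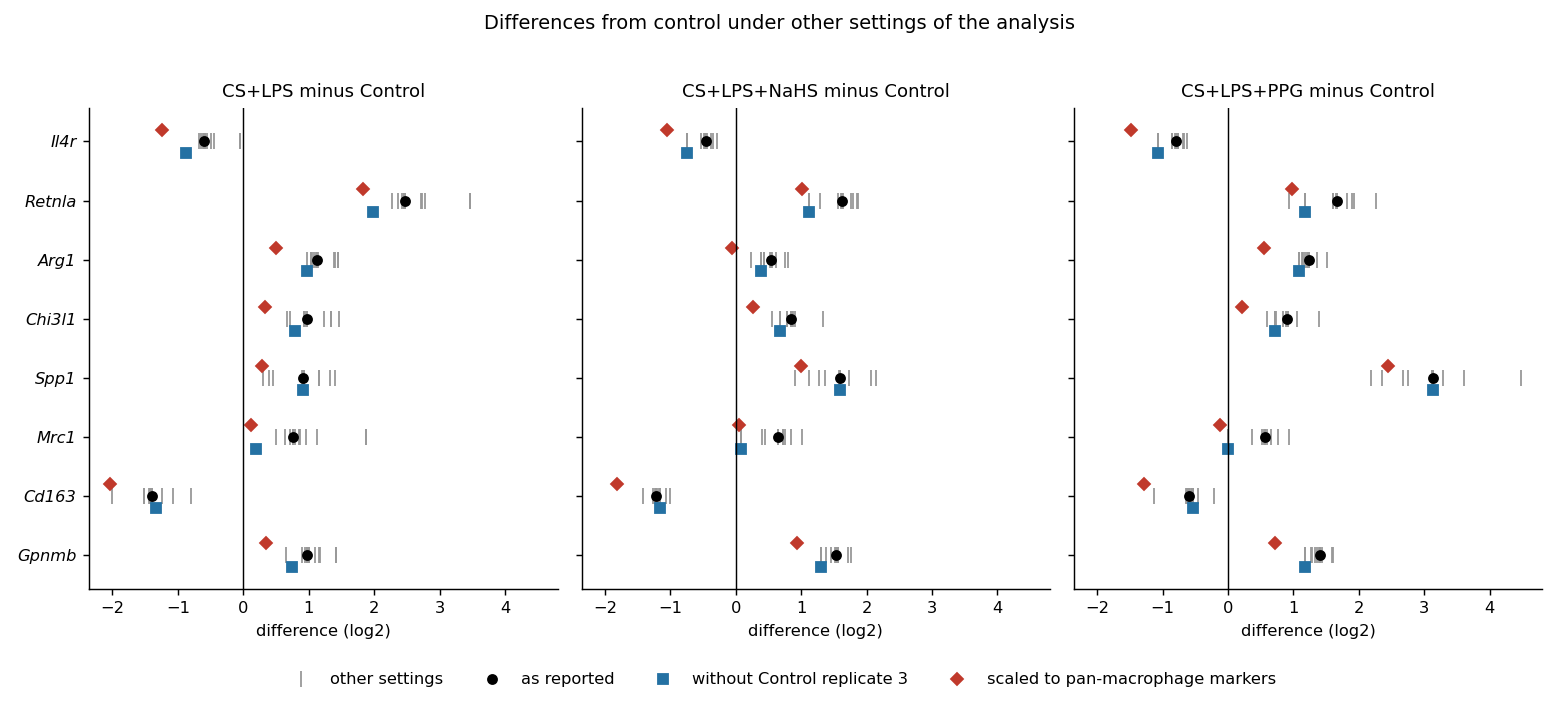
Difference from control (log2) of the 8 tested genes in the 3 exposed groups, as reported (black), without Control replicate 3 (blue), scaled to the mean of 22 pan-macrophage markers (red), and under the other settings tried (grey ticks). Retnla in CS+LPS lies between 1.83 and 3.46 under all 26 alternatives, while Mrc1 lies near 0 without Control replicate 3.

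Neighbouring programmes gave a frame for these values, with Control replicate 3 included. That array had the lowest control mean for the lipid and lysosome genes (11.64, against 12.12 and 12.14). The same held for the neutrophil markers (7.42, against 8.05 and 8.72) and T cell markers (7.82, against 8.96 and 9.53). Of 21 other detected genes of alternative activation, 2 were DE in CS+LPS, the macrophage elastase Mmp12 (1.43, adjusted p = 0.0455) and the IL-1 receptor antagonist Il1rn (1.09, adjusted p = 0.0375). With NaHS 1 was, the glucan receptor Clec7a (1.37), and with PPG 3 were, Clec7a (1.68), Mmp12 (1.32) and Il1rn (1.03). All were higher. Of 27 lipid and lysosome genes, a group that shares its setting with Gpnmb, 4, 3 and 4 were DE and higher. Trem2, a lipid-sensing receptor of macrophages, rose by 2.16, 1.66 and 2.40 (adjusted p = 0.00673, 0.036 and 0.00678), and Tfec, a Mitf-family factor of macrophages, by 1.54, 1.29 and 1.86, and the fatty acid carrier Fabp5 was DE in all 3 groups as well.

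Of 10 detected alveolar macrophage markers, 1 was DE and higher and 1 lower in CS+LPS (Cd2, which T cells also carry, at 1.46, and the lipid droplet gene Cidec at -1.13), 0 with NaHS and 2 higher with PPG (Cd2 at 1.74 and Il18 at 1.06). The control mean of Cidec includes Control replicate 3, the array with the highest fat markers, and the part of fat in it was not tested. Of 12 detected neutrophil markers, 4, 5 and 6 were DE and higher, Fcnb among them in each group (2.78, 2.74 and 2.61). Eosinophils, mast cells and T and B cells, which can supply IL-4 or IL-13, had 1 of 3, 3 of 8, 1 of 9 and 2 of 7 detected markers DE and higher in CS+LPS, 0, 0, 0 and 4 with NaHS, and 0, 0, 3 and 2 with PPG. The eosinophil list also had 1 marker DE and lower with NaHS. The mast cell list had 1 DE and lower in CS+LPS and a median difference of -0.10 there, and its mean level was 10.20 in CS+LPS replicate 1 against 8.89 and 8.15 in the others and 8.34 to 8.95 in control. The eosinophil genes Epx and Prg3 were not detected.

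**Figure D5:**
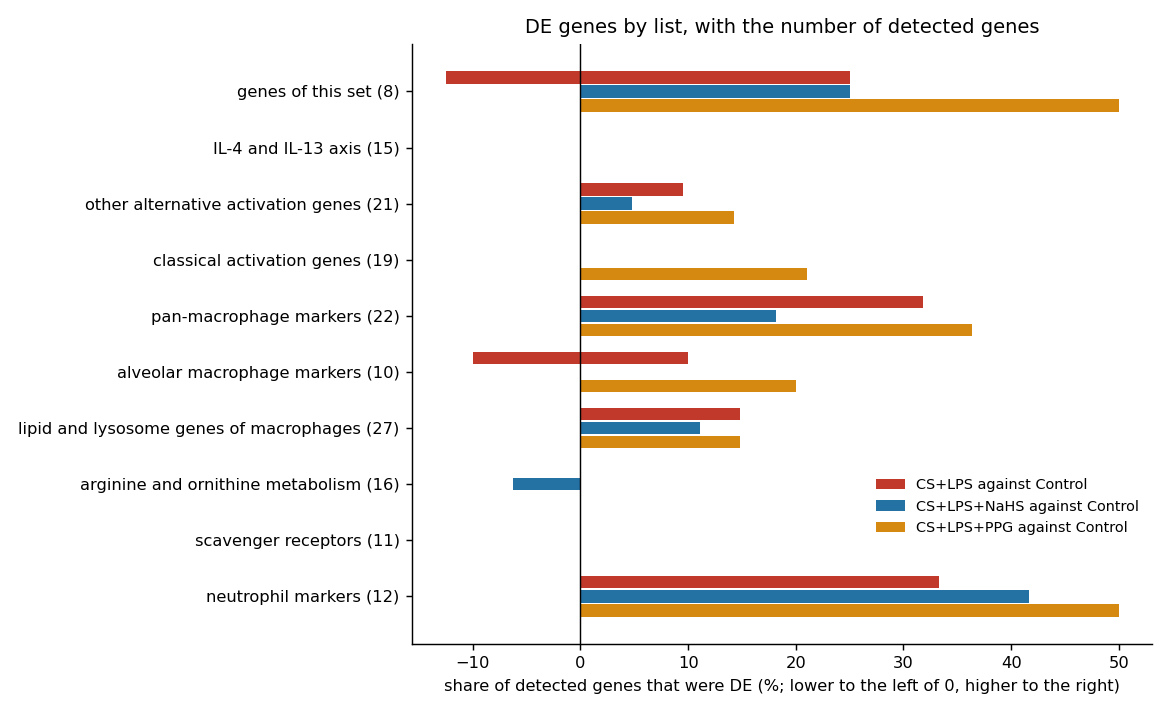
Share of detected genes (%) that were DE against control in each exposed group, by gene list, higher to the right and lower to the left of 0, with the number of detected genes in parentheses. The 8 tested genes reach 50% with PPG, the pan-macrophage markers have 8 of 22, and the IL-4 and IL-13 axis and the scavenger receptors have no DE gene.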

How the data were processed

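RNA came from the left upper lobe of 12 rat lungs, 3 per group, and cRNA was hybridized in 1 colour to Agilent rat arrays. Scans were read with Feature Extraction 10.7.3.1 and deposited array by array. The processed signal that the authors deposited is a linear intensity with background already subtracted by that software, and on 3 arrays (Control 1 and 2, NaHS 1) it is written with few digits. Lists of DE probes that the authors deposited gave names and positions only. Their fold changes, p-values and 60 columns of values per array were not used. Groups came from the sample labels, which do not tie replicates to separate cohorts or days.

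Spots flagged as outliers were left out, spots of a probe averaged, and log2 signals shifted so that the 75th percentile was the same on every array. Of 30367 probes, 21239 (69.9%) were detected. Accessions named 17514 probes, and the authors' lists 194 more. Fits used limma (version 3.58.1) in R (version 4.3.3), and figures matplotlib 3.10.9 in Python 3.11.15. One linear model over 12 arrays gave the 6 comparisons, tested on simulated data. The number of arrays limits the precision, and the p-values measure the spread between these rats. Relatives by pattern were the 3 genes with the highest r among the genes detected, of which 1 is not reported here.

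The genes, the lists of related genes and markers, and the rule for named genes (every one of the 10, DE genes of a list up to 4, and partners by role) were chosen with earlier results of these data known. Alternatives were other scalings, normexp background correction with an offset of 50 (on the median signal, as the mean is not in these files), other filters, slide or replicate number as a block, comparisons within 1 slide, 2 groups alone, the methods' t-test (the unpaired test the study's methods name, on the same values and thresholds), all probes of a gene averaged, and each array left out in turn.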

Additional observations from a re-analysis of the deposited data

How the results depend on the processing

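Over all settings and comparisons, the 8 genes kept their call 1154 times, gained one 48 times and lost one 30 times, and no call changed sign. The counts of DE genes moved as follows. The share of all probes that were DE in the same setting is given in parentheses. Against control, CS+LPS (3) gave 5 with slide as a block (22.7%). NaHS (2) gave 1 with slide as a block (1.94%) and 4 with only the 2 groups in the fit (2.26%). PPG (4) gave 2 by the methods' t-test (2.34%). It also gave 2 after scaling to the pan-macrophage markers (23.8%), an alternative added after the data were seen. Against CS+LPS, NaHS (0) gave 2 with slide as a block (19.9%). PPG (0) gave 1 with normexp (0.574%) and 2 with slide as a block (19.4%). The cause was not tested. Leaving out 1 array in turn gave 1 to 5 for CS+LPS (2.88% to 8.43%) and 1 to 3 for NaHS (1.94% to 5.78%) against control. It gave 3 to 5 for PPG against control (3.11% to 7.54%). For PPG it gave 0 to 1 against CS+LPS (1.81% to 2.48%) and 0 to 1 against NaHS (0.504% to 0.758%). The count for CS+LPS was 1 without Control replicate 3 or CS+LPS replicate 2 and 5 without CS+LPS replicate 1, and that for NaHS was 1 without Control replicate 3 or NaHS replicate 2. The count for PPG against CS+LPS was 1 without CS+LPS replicate 1 (Cd163, 1.40) or 3 (Spp1) and without PPG replicate 2 (Spp1) or 3 (Retnla, -1.54). Single calls for PPG against NaHS came without NaHS replicate 3 or PPG replicate 2. The labels do not say that replicate numbers pair the rats. Deviations from the group means correlated at -0.31 to 0.14 between same-numbered arrays and at -0.2 to 0.22 between others. With 3 arrays per group these ranges cannot show whether rats were paired. With the replicate block PPG against CS+LPS gave 1 (Spp1, where 2.04% of all probes were DE), while the other counts stayed within 1.5 times. Over all probes, 351 of 969 DE probes in CS+LPS were higher, 568 of 922 with quantile normalization, and 4831 probes were DE with slide as a block. NaHS or PPG against CS+LPS could not be computed within 1 slide.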

Other observations

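Genes of classical activation stood beside the alternative set in the PPG group. Of 19 detected, 4 were DE and higher against control there (2.32% of all probes were). They were the interferon-induced chemokines Cxcl11 (2.13), Cxcl10 (1.90, adjusted p = 0.0211 in limma) and Cxcl9 (1.17), and the cytokine Tnf (1.03, adjusted p = 0.0472). In the CS+LPS and NaHS groups 0 were DE, though 1 passed the adjusted test in CS+LPS. The median difference of the list was 0.47 in CS+LPS, 0.31 with NaHS and 0.55 with PPG, with 14, 15 and 15 of 19 genes higher. The same 3 chemokines were DE and higher with PPG than in CS+LPS (Cxcl10 by 1.32, adjusted p = 0.13) and than with NaHS (Cxcl10 by 1.31, adjusted p = 0.563). Mpo, the granule peroxidase of neutrophils, was higher than in CS+LPS with NaHS (1.54, adjusted p = 0.0394) and with PPG (1.70, adjusted p = 0.026), a comparison that is also slide against slide. It was the only 1 of 12 detected neutrophil markers that was DE in either comparison. In each, 6 of the 12 were higher and 6 lower, with a median difference of -0.01.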
